A study of Drosophila melanogaster with 4 samples.

Results

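The 8 genes described here make, sense and break down juvenile hormone in *Drosophila melanogaster*. They are *jhamt*, *Met*, *gce*, *Kr-h1*, *Jheh1*, *Jheh2*, *Jheh3* and *Jhe*, taken by name out of the 13494 genes that the files list. Their expression was compared between HP1a mutant larvae, which had the allele Su(var)205[04] on one homolog and the allele Su(var)205[05] on the other, and wildtype larvae of the Oregon R strain. Larvae of both genotypes were in the third instar and were sampled whole, and 2 biological samples of each were sequenced as rRNA-depleted total RNA. The mutants came from parents that carried a GFP balancer and were picked by the lack of GFP. Such mutants are known to reach this stage on HP1a supplied by the mother, so they do not lack the protein throughout their life. The stocks were kept at 25°C and 70% humidity.

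Juvenile hormone is a sesquiterpenoid that insect larvae make in the corpora allata, which in the fly are part of the ring gland. *jhamt* encodes the methyltransferase of a last step of its synthesis. The hormone binds the basic helix-loop-helix PAS proteins encoded by the paralogs *Met* and *gce*, and the bound receptor switches on *Kr-h1*, a zinc finger gene whose product holds off metamorphosis. The esterase *Jhe* and the epoxide hydrolases *Jheh1*, *Jheh2* and *Jheh3* degrade the hormone. Its titer is known to decline before the larva pupariates.

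Values are FPKM (fragments per kilobase of transcript, scaled to the mapped fragments of the library), summed over the RefSeq rows of a gene. They are scaled for transcript length and for mapped fragments only. The confidence bounds beside each FPKM imply between 7320733 and 7656033 fragments per library. The targeted gene *Su(var)205* had 27.8 and 20.1 FPKM in the HP1a mutant libraries, against 125 and 137 FPKM in the wildtype libraries. The median gene was lower in the mutant libraries, at 4.08 and 3.38 FPKM against 8.20 and 8.91 FPKM in wildtype. Over the 9404 genes tested, the median log2 fold change of mutant over wildtype was -0.84, and it was -0.02 once each library was rescaled to the same median. Fold changes are given as deposited, and for most log2 fold changes the value after this rescaling is given too. Ratios of mean FPKM are as deposited only. Genes left out of the 9404 have no rescaled value. These are bulk samples, in which fewer cells of a type and less RNA per cell cannot be told apart.

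*Jheh1* and *Jheh3* rose in the HP1a mutant, to 3.87 and 2.70 times the wildtype mean FPKM, and *Kr-h1* fell, its wildtype mean being 3.76 times the mutant mean. The differences for *jhamt*, *Met*, *gce* and *Jheh2* did not pass. Of the 8 genes, 7 were expressed above the study's cutoff (mean log2(FPKM + 1) above 1.4) and were tested with limma on log2(FPKM + 1), with Benjamini-Hochberg adjustment over all 9404 genes at an FDR of 0.01. 2 of the 7 were higher, where 7.02% of all tested genes were higher, and 1 was lower, where 34.6% of all tested genes were lower. With the libraries rescaled, 2 were higher and 0 lower (limma, 4 of the 7 at an unadjusted p under 0.05), against 12.6% higher and 10.3% lower among all tested genes. The genotypes did not overlap for any of the 7, with the mutant libraries above in 3 and below in 4. Among all tested genes, both mutant libraries lay above both wildtype libraries for 17.3% and below them for 69.1%.

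**Figure D1:**
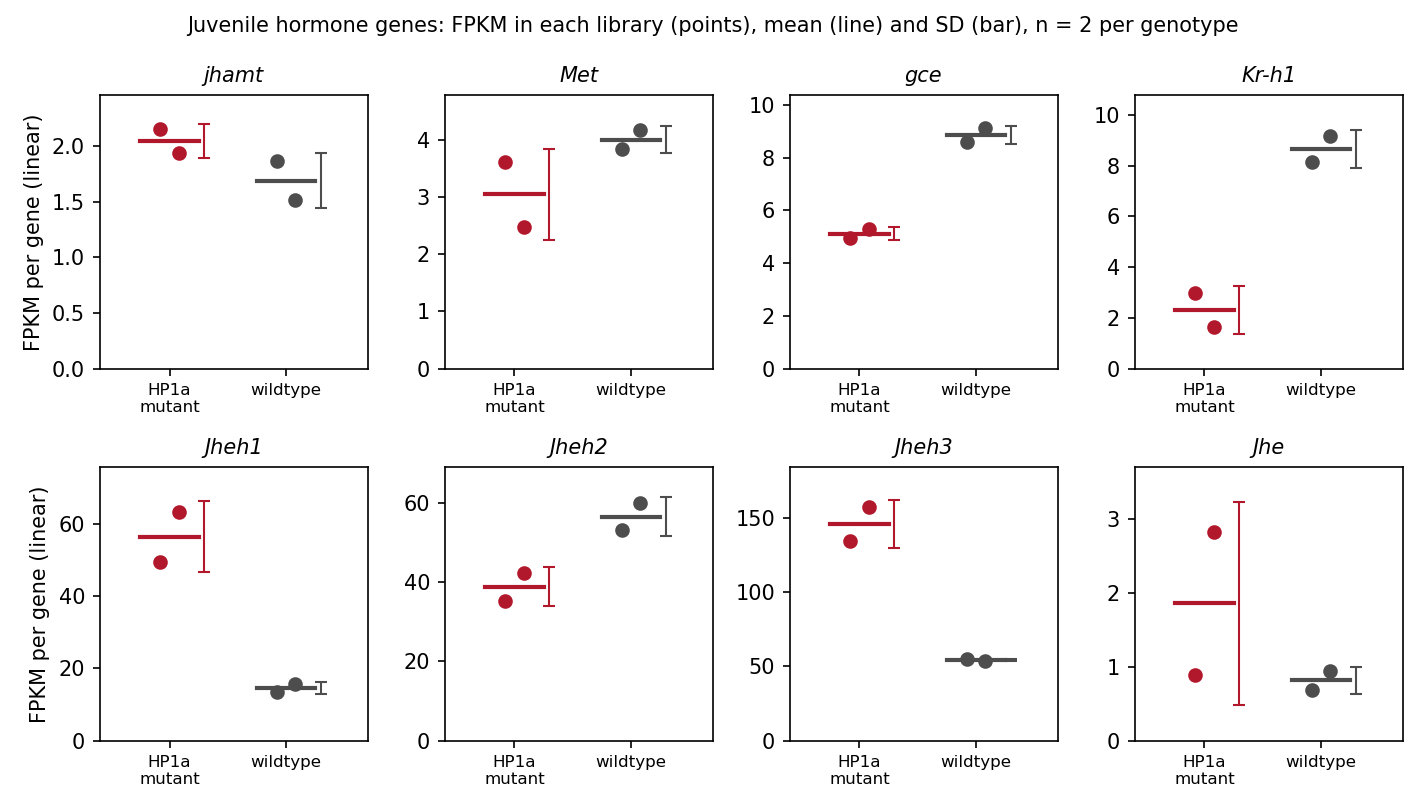
FPKM (y axis, linear, from 0) of the 8 juvenile hormone genes in each HP1a mutant and wildtype library (points), with the mean (line) and SD (bar) of 2 libraries per genotype. *Jheh1* and *Jheh3* are higher in both mutant libraries and *Kr-h1* is lower in both, while for *Jhe* the points of the genotypes overlap.

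The gene of hormone synthesis, *jhamt* (2L:16365919-16366977, genome Release 5), was expressed at a low level in all libraries. It had 2.15 and 1.94 FPKM in the HP1a mutant libraries, against 1.86 and 1.52 FPKM in the wildtype libraries. The mutant values lay above those of wildtype, by little in FPKM. They rest on 15 and 13 fragments in the mutant, against 12 and 10 fragments in wildtype, and the exact 95% Poisson interval of the highest value, 1.20 to 3.55 FPKM, covers all 4 values. Such intervals hold counting error only. The log2 fold change was 0.18 (standard error 0.20, limma adjusted p = 0.456), and 0.78 with the libraries rescaled (standard error 0.20, limma adjusted p = 0.0353). With quantile normalization it was 1.24 (limma adjusted p = 0.0120), so that the size of the difference moved with the scaling while the call did not. Within a library, *jhamt* stood at the percentile 39.4 and 41.0 of all genes in the mutant, against 24.5 and 21.7 in wildtype. Its rank was thus higher in both mutant libraries at a nearly level FPKM.

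The receptor gene *Met* (X:11510159-11513981) had 3.62 and 2.49 FPKM in the mutant libraries, against 3.84 and 4.19 FPKM in the wildtype libraries. One mutant library was close to wildtype and the other was lower. The log2 fold change of -0.32 (standard error 0.22) did not pass (limma adjusted p = 0.250), and its sign turned with the libraries rescaled, at 0.39 (limma adjusted p = 0.146). Its paralog *gce* (X:15193258-15212226), summed over its 2 RefSeq rows, was above *Met* in every library. In HP1a mutant replicate 1 neither row alone was, at 1.56 and 3.39 FPKM against 3.62 FPKM for *Met*. The summed FPKM of *gce* was 4.96 and 5.29 in the mutant, against 8.61 and 9.12 in wildtype. The libraries of each genotype lay close together and the genotypes were apart, yet the log2 fold change of -0.69 (standard error 0.15) missed the FDR (limma adjusted p = 0.0180). It was near the median of all genes, and with the libraries rescaled it was 0.12 (limma adjusted p = 0.622).

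A ratio of genes within a library does not move with the scaling of that library, so the receptors were also compared in this way. The ratio of *gce* to *Met* in FPKM was 1.37 and 2.12 in the mutant libraries, against 2.24 and 2.18 in the wildtype libraries. Only HP1a mutant replicate 1 stood apart. The difference of the mean log2 ratio, mutant minus wildtype, was -0.37, and without this library it was -0.06. A two-sided exact permutation test over the 4 libraries gave p = 0.333, the smallest that 2 against 2 libraries can give.

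*Kr-h1* (2L:6081808-6096498), the response gene, had 2.98 and 1.63 FPKM in the HP1a mutant libraries, against 8.13 and 9.18 FPKM in the wildtype libraries. Both mutant libraries were far below both wildtype libraries. The mean was 2.30 ± 0.959 FPKM in the mutant and 8.66 ± 0.747 FPKM in wildtype (SD, n = 2 each). The log2 fold change was -1.58 (standard error 0.26), with a limma adjusted p = 0.00822. The median of all tested genes was -0.84 on this scale. With the libraries rescaled the log2 fold change was -0.84 (standard error 0.23) and the call was lost (limma adjusted p = 0.0400), as it was with quantile normalization (-0.50, limma adjusted p = 0.102). The adjusted p was also above 0.01, by little, with a pseudocount of 0.1 (0.0113), without the filter on low values (0.0122), with a mean FPKM above 5 (0.0121) and with the replicate number as a block (0.0110), all from limma. In rank, *Kr-h1* stood at the percentile 44.5 and 38.5 in the mutant, against 49.8 and 50.8 in wildtype.

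Markers of stage and of the ring gland were set beside *Kr-h1*. The salivary glue genes, which are switched on late in the third instar, had a summed FPKM of 75.0 and 484 in the mutant libraries, against 49634 and 53125 in the wildtype libraries. All 5 of the glue genes that could be tested were lower in the mutant, where 34.6% of all tested genes were lower. With the libraries rescaled, 4 of the 5 were lower, where 10.3% of all tested genes were. *Sgs3*, at 0.752 and 1.82 FPKM in the mutant and 256 and 370 FPKM in wildtype, was over the cutoff through its wildtype values. *Sgs1*, the other of the 6 listed, was below the cutoff, and at 0 FPKM in HP1a mutant replicate 2. It was lower in the fit without the filter on low values (-1.24, limma adjusted p = 0.00732). The enzymes of ecdysone synthesis in the prothoracic gland, the neighbor of the corpora allata within the ring gland, had a summed FPKM of 13.7 and 22.9 in the mutant, against 58.0 and 59.8 in wildtype. Of these 5 genes 4 were tested and 2 passed, *spok* at -2.00 and *dib* at -1.47, both lower. Among all tested genes, 34.6% were lower. With the libraries rescaled, *spok* and *dib* were at -1.19 and -0.86 and 0 of the 4 passed, where 10.3% of all tested genes were lower. *dib* was over the cutoff only through its wildtype values of 4.70 and 3.88 FPKM. In the mutant it had 0.670 and 1.17 FPKM, on about 9 and 15 fragments. *Akh*, the hormone gene of the adjoining corpora cardiaca, had 2.39 and 5.31 FPKM in the mutant, against 7.39 and 4.33 FPKM in wildtype, with overlap. The part of stage and of ring gland tissue in the values of *jhamt* and *Kr-h1* was not tested.

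**Figure D2:**
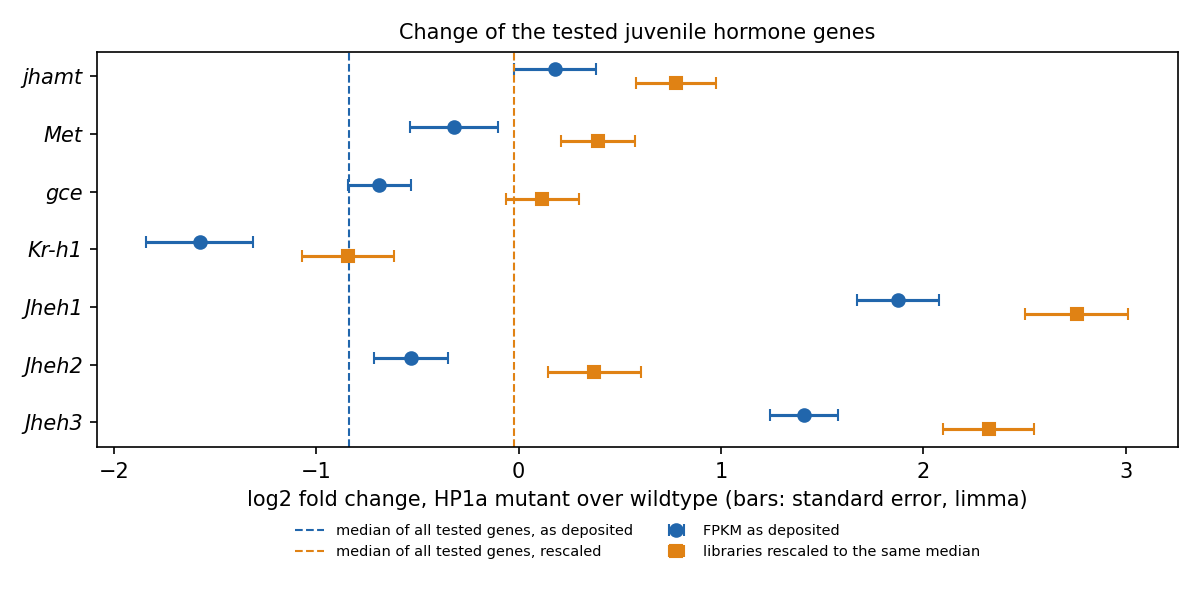
The log2 fold change of HP1a mutant over wildtype (x axis) for the 7 tested juvenile hormone genes, with FPKM as deposited (circles) and with the libraries rescaled to the same median (squares). Bars are standard errors from limma, and dashed lines are the medians of all tested genes, -0.84 and -0.02, so that *Kr-h1* is the gene left of the median on both scales and *Jheh1* and *Jheh3* are the farthest to the right.

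The 3 epoxide hydrolase genes lie next to each other on chromosome arm 2R (Release 5), in the order *Jheh1* (2R:14740939-14742614), *Jheh2* (2R:14743272-14745443) and *Jheh3* (2R:14747880-14749576). The gap between the first pair is 657 bp and that between the second pair is 2436 bp, and the files list no other transcript in either gap or overlapping the genes. They were the most abundant of the 8 genes in every library. They are paralogs, and how Cufflinks divided fragments that match more than one of them is not known here.

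*Jheh1* had 49.4 and 63.2 FPKM in the HP1a mutant libraries, against 13.4 and 15.7 FPKM in the wildtype libraries. Even the lower mutant value was far above both wildtype values. The log2 fold change was 1.88 (standard error 0.20, limma adjusted p = 0.00341), and 2.76 with the libraries rescaled (limma adjusted p = 0.00333). *Jheh3* had 134 and 157 FPKM in the mutant libraries, against 54.6 and 53.5 FPKM in the wildtype libraries. It showed the same order of libraries by genotype, and the wildtype libraries hardly differed. Its log2 fold change was 1.41 (standard error 0.17, limma adjusted p = 0.00400), and 2.32 with the libraries rescaled (limma adjusted p = 0.00361).

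*Jheh2*, which sits between them, had 35.3 and 42.4 FPKM in the mutant libraries, against 53.1 and 60.0 FPKM in the wildtype libraries. The genotypes were apart, but the log2 fold change of -0.53 (standard error 0.18) did not pass (limma adjusted p = 0.0577). It was 0.37 with the libraries rescaled (limma adjusted p = 0.243) and -0.20 with quantile normalization (limma adjusted p = 0.495), so that its direction is set by the scaling.

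The makeup of the cluster does not change with a scaling factor of the library. The ratio of *Jheh2* to *Jheh1* in FPKM was 0.715 and 0.670 in the mutant libraries, against 3.97 and 3.82 in the wildtype libraries. The order of these neighbors was thus reversed between the genotypes in all 4 libraries. The mean log2 ratio was -0.53 in the mutant (SD 0.066, n = 2) and 1.96 in wildtype (SD 0.039, n = 2), a difference of -2.49, which is far larger than the spread between replicates (exact permutation p = 0.333, the smallest possible here). *Jheh3* to *Jheh1* gave 2.72 and 2.49 in the mutant, against 4.08 and 3.40 in wildtype, a difference of -0.52 on the log2 scale (exact permutation p = 0.333). Of the summed FPKM of the cluster, *Jheh2* held 16.1% in both mutant libraries, against 43.8% and 46.4% in wildtype. *Jheh1* held 22.5% and 24.1% in the mutant, against 11.1% and 12.2% in wildtype. *Jheh3* held 61.3% and 59.8%, against 45.1% and 41.4%. The sum itself was 241 ± 30.9 FPKM in the mutant and 125 ± 5.73 FPKM in wildtype (SD, n = 2 each).

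**Figure D3:**
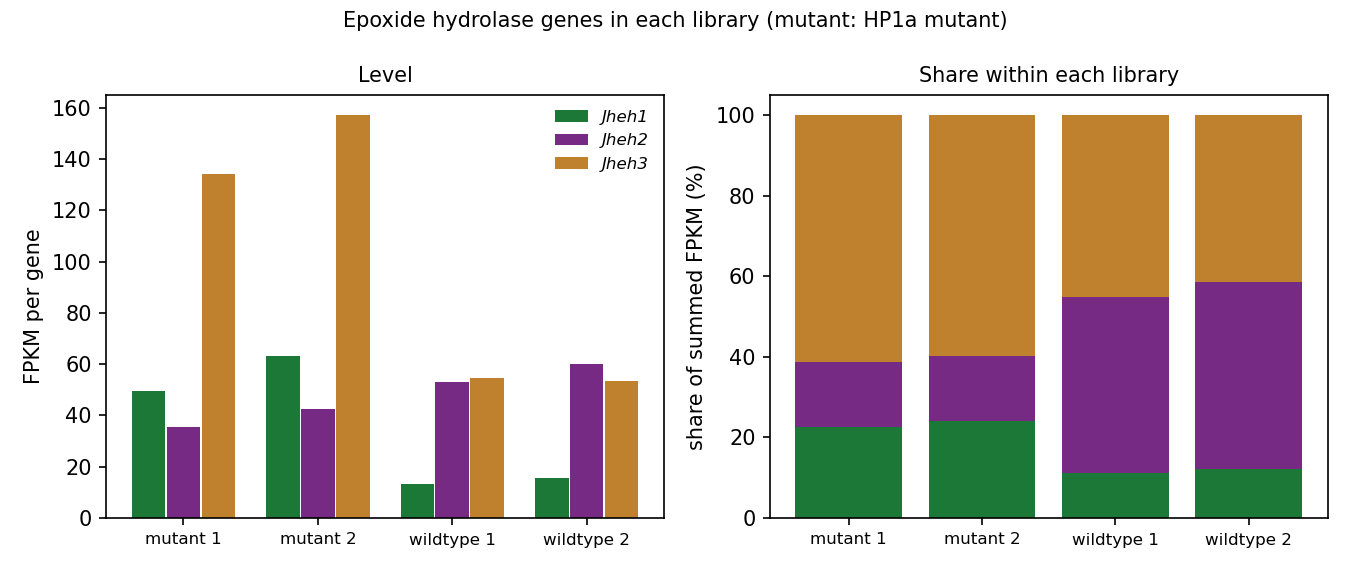
Epoxide hydrolase genes in the HP1a mutant and wildtype libraries, as FPKM per gene (left, y axis from 0) and as the share of their summed FPKM in percent (right). *Jheh2* (middle bar, middle segment) is below *Jheh1* in both mutant libraries and above it in both wildtype libraries.

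Genes of the fat body, which makes and stores serum proteins, were set beside these enzymes. The 6 serum protein genes listed had a summed FPKM of 30348 and 45528 in the mutant libraries, against 24247 and 22156 in the wildtype libraries. Of these genes 3 were higher (*Lsp1alpha*, *Lsp1beta* and *Lsp1gamma*) and 1 was lower (*Fbp1*, at -7.35, and -6.44 rescaled), and none was at 0. *Lsp2* was below wildtype in both mutant libraries, at 2727 and 4433 FPKM against 9321 and 7758 FPKM. It did not pass (-1.29, limma adjusted p = 0.0203, and -0.36 rescaled). *Fbp2* was above wildtype in both mutant libraries and did not pass either (0.83, limma adjusted p = 0.196, and 1.75 rescaled). *Lsp1alpha* had a log2 fold change of 2.71 (limma adjusted p = 0.00251), and 3.64 rescaled. Of 4 larval cuticle genes 2 were higher (*Lcp3* at 2.64 and *Lcp4* at 1.24) and 1 was lower (*Lcp1* at -2.66). Rescaled, these were at 3.57, 2.16 and -1.73. *Lcp2* was below wildtype in both mutant libraries and did not pass (-1.38, limma adjusted p = 0.0123, and -0.46 rescaled). It passed with quantile normalization (-1.50, limma adjusted p = 0.00720). The 4 genes had a summed FPKM of 19509 and 16101 in the mutant, against 8759 and 9445 in wildtype. Beside both lists, 7.02% of all tested genes were higher and 34.6% lower (12.6% and 10.3% with the libraries rescaled). The part of fat body or epidermal tissue in the levels of *Jheh1* and *Jheh3* was not tested.

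*Jhe* (2R:12007311-12010278), the esterase gene, was the lowest of the 8 in wildtype and lay below the cutoff, so it has no call in the test of all genes. It had 0.888 and 2.83 FPKM in the mutant libraries, against 0.689 and 0.942 FPKM in the wildtype libraries. Only HP1a mutant replicate 2 was high, with 43 fragments, and the other mutant library lay between the wildtype values, so that the genotypes overlap. The exact 95% Poisson interval of that value, 2.05 to 3.81 FPKM, is above the other 3 values. Without the filter on low values, the log2 fold change was 0.57 (standard error 0.39, limma adjusted p = 0.273). Its neighbor in function *Jhedup*, the esterase duplicate, had 0.293 and 1.37 FPKM in the mutant, against 6.18 and 3.79 FPKM in wildtype. Both mutant libraries were lower, and the log2 fold change of -1.74 did not pass (standard error 0.40, limma adjusted p = 0.0192), nor did that of -1.15 with the libraries rescaled (limma adjusted p = 0.117).

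By mean level, the order in the mutant was *Jheh3*, *Jheh1*, *Jheh2*, *gce*, *Met*, *Kr-h1*, *jhamt* and *Jhe*. The values of *Met* and *Kr-h1* and of *Kr-h1* and *jhamt* overlapped between the libraries. Those of *Jhe* overlapped with *jhamt*, *Kr-h1* and *Met*. The order in wildtype was *Jheh2*, *Jheh3*, *Jheh1*, *gce*, *Kr-h1*, *Met*, *jhamt* and *Jhe*. There *Jheh2* overlapped with *Jheh3*, and *gce* with *Kr-h1*. The rank of *Jheh1* among all genes was at the percentile 88.5 and 91.5 in the mutant, against 62.1 and 64.9 in wildtype, and that of *Jheh2* was at 85.5 and 88.6, against 87.9 and 89.0.

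The files list 12 RefSeq rows for the 8 genes, all with the Cufflinks status OK, and *gce*, *Kr-h1*, *Jheh2* and *Jhe* have 2 each. For *Kr-h1*, the row with the longer span, NM_058119, held 83.4% and 82.9% of the FPKM of the gene in the mutant libraries, against 86.1% and 92.6% in the wildtype libraries. It had 2.49 and 1.35 FPKM in the mutant, against 6.99 and 8.50 FPKM in wildtype. The row that starts further in, NM_058118, had 0.495 and 0.278 FPKM, against 1.13 and 0.681 FPKM. Both rows were thus lower in both mutant libraries. For the row that starts further in, the bounds of HP1a mutant replicate 1 (0.257 to 0.733 FPKM) and wildtype replicate 2 (0.394 to 0.968 FPKM) overlap. A further row at this locus has no gene in the reference and was not counted. It had 0.470 and 0.341 FPKM in the mutant, against 0.821 and 0.305 FPKM in wildtype.

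For *gce*, the rows did not keep their order between the wildtype libraries. NM_078605 had 1.56 and 1.90 FPKM in the mutant, against 5.70 and 3.39 FPKM in wildtype. NM_001201664 had 3.39 and 3.39 FPKM in the mutant, against 2.91 and 5.73 FPKM in wildtype. The sum of the rows was steady between the wildtype libraries while the rows were not, and no difference between the rows can be read from these values. For *Jheh2*, NM_176233 had 8.82 and 8.03 FPKM in the mutant, against 20.7 and 14.4 FPKM in wildtype, with no overlap. NM_137542 had 26.5 and 34.4 FPKM, against 32.4 and 45.6 FPKM, with overlap. The less abundant row held 25.0% and 18.9% of the FPKM of the gene in the mutant, against 39.0% and 24.0% in wildtype. These shares overlap, so no shift between the rows can be read from them.

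**Figure D4:**
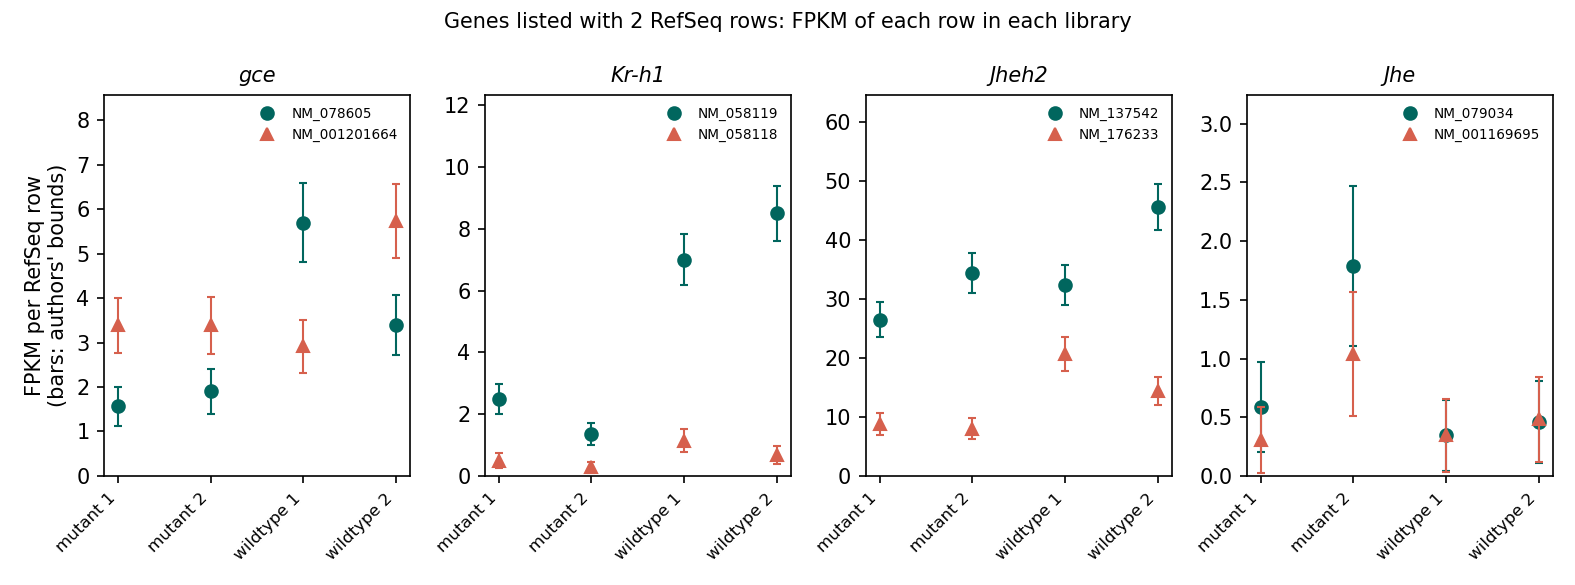
FPKM (y axis, linear) of each RefSeq row in each HP1a mutant and wildtype library for the 4 genes with 2 rows. Bars are the confidence bounds that the authors gave. The rows of *gce* change places between the wildtype libraries. Both rows of *Kr-h1* are lower in both mutant libraries, with overlapping bounds for the less abundant row.

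Other genes of the hormone pathway were taken from 5 lists with 30 genes, of which 22 were tested. Of these, 1 was higher and 3 were lower, where 7.02% of all tested genes were higher and 34.6% lower. The median log2 fold change of the 22 was -0.59, beside -0.84 for all tested genes. With the libraries rescaled 1 was higher and 1 lower, where 12.6% of all tested genes were higher and 10.3% lower. The median of the 22 was then 0.20.

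None of the 7 tested enzymes of the mevalonate and farnesyl precursor list passed in limma (2 at an unadjusted p under 0.05). Their median was -0.29, and 0.49 with the libraries rescaled, so its sign turned with the scaling. *Fpps*, the farnesyl pyrophosphate synthase, had 12.5 and 13.2 FPKM in the mutant, against 14.3 and 16.4 FPKM in wildtype (log2 fold change -0.23, limma adjusted p = 0.254, and 0.63 rescaled, limma adjusted p = 0.0494). *Pmvk*, the phosphomevalonate kinase, had 4.61 and 5.66 FPKM, against 13.3 and 10.3 FPKM, with the lowest log2 fold change of the list at -1.06 (limma adjusted p = 0.0119, and -0.24 rescaled). *Cyp6g2*, a cytochrome P450 gene, had 2.47 and 1.95 FPKM, against 2.30 and 2.87 FPKM, with overlap. The Cufflinks status of *Hmgs*, a synthase of the mevalonate pathway, was not OK in all libraries, and in the fit of genes of any status it did not pass (0.75, limma adjusted p = 0.0863).

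Of the 6 receptor partners and chaperones, 2 were lower, about the 34.6% of all tested genes that were lower, and 0 were higher. Their median was -1.20, and -0.34 with the libraries rescaled. *tai*, a coactivator of nuclear receptors that also binds *Met*, had 7.96 and 6.93 FPKM in the mutant, against 22.3 and 21.2 FPKM in wildtype (log2 fold change -1.43, limma adjusted p = 0.00353). *usp*, the partner of the ecdysone receptor, had 8.46 and 7.50 FPKM, against 19.1 and 19.6 FPKM (-1.18, limma adjusted p = 0.00476). Neither passed with the libraries rescaled, at -0.58 and -0.33. *Hsp83*, the chaperone gene of the HSP90 family, had 719 and 379 FPKM, against 1107 and 922 FPKM, and did not pass (-0.95, limma adjusted p = 0.0747, and -0.03 rescaled).

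Of the genes listed as regulated by the hormone, 4 of 6 were tested, with 1 higher and 1 lower. Among all tested genes, 7.02% were higher and 34.6% lower. *JhI-26*, named for its induction by juvenile hormone in fly cells, had 89.7 and 129 FPKM in the mutant, against 41.1 and 38.0 FPKM in wildtype. It rose (log2 fold change 1.42, limma adjusted p = 0.00797), also with the libraries rescaled (2.33, limma adjusted p = 0.00676). It lost the call by little with quantile normalization (limma adjusted p = 0.0120), without the filter on low values (0.0103) and with the replicate number as a block (0.0116). *JhI-21*, an amino acid transporter gene named in the same way, had 13.0 and 5.72 FPKM, against 17.8 and 13.8 FPKM, and did not pass (-0.78, and 0.06 rescaled). *JhI-1*, listed as *RNaseZ*, had 3.94 and 2.38 FPKM, against 3.77 and 4.64 FPKM, with overlap.

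*Eip75B*, a nuclear receptor gene that ecdysone also induces, had 4.33 and 2.93 FPKM in the mutant, against 22.3 and 27.2 FPKM in wildtype. It fell on both scales (log2 fold change -2.48, limma adjusted p = 0.00277, and -1.67 with the libraries rescaled, limma adjusted p = 0.00458). The metamorphosis genes *br* and *Eip93F*, on which the product of *Kr-h1* is known to act, were not among the genes tested above, since the Cufflinks status of *br* was not OK in a mutant library and *Eip93F* was below the cutoff. *br* had 3.26 and 0.944 FPKM in the mutant, against 63.2 and 72.0 FPKM in wildtype. It was lower in the fit of genes of any status (log2 fold change -4.57, limma adjusted p = 0.00283). *Eip93F* had 0.0765 and 0.0126 FPKM in the mutant, against 2.30 and 1.89 FPKM in wildtype. It was lower in the fit without the filter on low values (-1.57, limma adjusted p = 0.00421).

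Of the allatostatin genes and their receptors, which restrain the corpora allata in other insects, 3 of 7 were tested and none passed in limma (1 at an unadjusted p under 0.05). *AstA* had 3.02 and 3.32 FPKM in the mutant, against 4.06 and 4.54 FPKM in wildtype, with a log2 fold change of -0.34, and 0.38 rescaled. *Mip* had 5.74 and 5.95 FPKM, against 4.55 and 5.05 FPKM. Its log2 fold change was 0.24 (limma adjusted p = 0.245) and 1.02 rescaled (limma adjusted p = 0.0130), and it was higher at the FDR with quantile normalization (1.31, limma adjusted p = 0.00611). *AstA-R2* had 1.60 and 0.996 FPKM, against 3.89 and 4.64 FPKM (log2 fold change -1.21, limma adjusted p = 0.0116, and -0.57 rescaled). It was over the cutoff only through its wildtype values, and passed with a pseudocount of 5 and without the variance trend. *to*, the founding gene of a family of carrier-like proteins, had 3.95 and 5.51 FPKM, against 1.91 and 0.431 FPKM, and did not pass (1.47, limma adjusted p = 0.0338, and 2.07 rescaled).

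**Figure D5:**
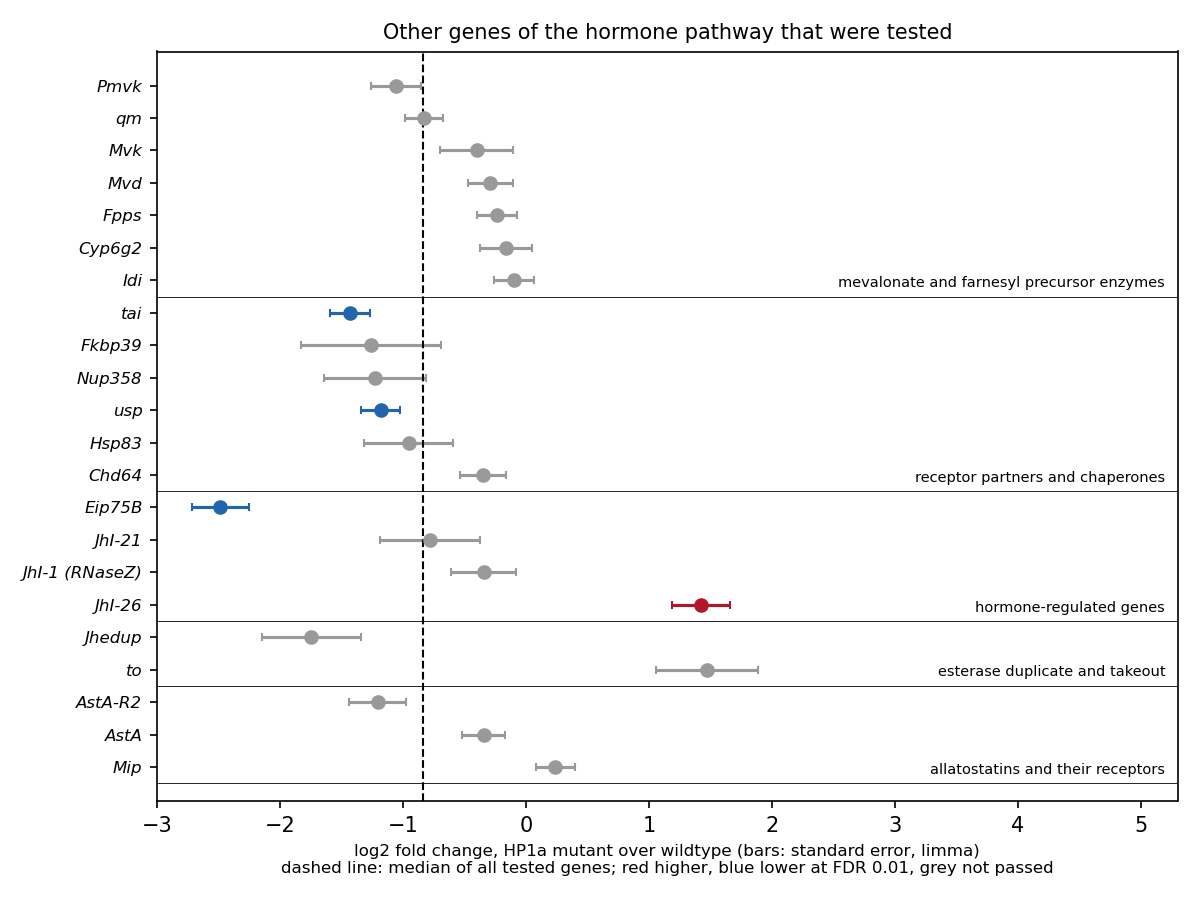
The log2 fold change of HP1a mutant over wildtype (x axis) with its standard error for the 22 tested genes of the 5 pathway lists, ordered within each list. Red genes were higher and blue genes lower at an FDR of 0.01, grey genes did not pass, and the dashed line is the median of all tested genes, -0.84. Only *JhI-26* is red, and *tai*, *usp* and *Eip75B* are blue.

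For the 4 genes of synthesis and response, the genes most like them over the 4 libraries were found by the Euclidean distance of log2(FPKM + 1), centered on the mean of each gene, among the 9403 other tested genes. They were *Appl*, *Tet* and *rept* for *Kr-h1* (distances of 0.054 to 0.074). *cpb*, *fws* and *nub* were nearest to *gce* (0.019 to 0.033), *ArgRS-m*, *Lnk* and *CG12065* to *Met* (0.025 to 0.032), and *IP3K2*, *Pex6* and *CG31809* to *jhamt* (0.049 to 0.071). The points share 4 libraries and 2 genotypes, and the distances are given as a description.

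With a wildtype library left out, calls were lost for all genes tested, and not for these 7 in particular. The log2 fold changes of the 3 called genes moved little. Without wildtype replicate 1 or 2 they were 1.77 and 1.98 for *Jheh1*, 1.43 and 1.39 for *Jheh3*, and -1.65 and -1.50 for *Kr-h1*. With either HP1a mutant library left out, all 3 passed.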

How the data were processed

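Total RNA of whole larvae in the third instar (2 HP1a mutant and 2 wildtype samples) was sequenced after rRNA depletion. Per the labels, TopHat and Cufflinks were used; versions and strand setting: not given in the sources used here. FPKM for each RefSeq row, with confidence bounds and a status, were deposited by the authors without pooling replicates. The build is not named, and the scaffold names and coordinates are those of Release 5 (starts printed 1-based).

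RefSeq names (Release 6 table, names only) were found for 21388 of 22608 rows. FPKM were summed per gene, leaving out 267 rows whose accession is listed at several loci, which gave 13494 genes. Fragments were taken as the square of FPKM over its standard deviation, itself the upper bound minus FPKM, divided by 2. limma 3.58.1 in R 4.3.3 (two-sided moderated test, variance trend) was run on log2(FPKM + 1) of the 9404 genes with a mean above 1.4 and status OK in all 4 libraries, at an FDR of 0.01 as in the study. No count test was used. Ratios were tested by exact permutation in Python 3.11.15 (numpy 2.4.6, pandas 2.3.3, scipy 1.17.1, matplotlib 3.10.9). The steps were tested on simulated data.

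Named were the 8 genes, those of 5 pathway lists and of the tissue and stage lists, *Su(var)205*, transcripts overlapping the 8 genes, and the 3 genes nearest in pattern to *jhamt*, *Met*, *gce* and *Kr-h1*. These genes and lists were chosen with earlier results of these data known. Alternatives were pseudocounts of 0.1 and 5, no filter, a mean FPKM above 5, any status, median rescaling, quantile normalization, no variance trend, a replicate block, leaving out each library and, chosen after seeing the data, adding the row without a gene to *Kr-h1*. One gene of the pathway lists is not reported here.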

Additional observations from a re-analysis of the deposited data

How the results depend on the processing

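*Jheh1* and *Jheh3* kept their direction and their call in all alternatives other than leaving out a wildtype library, with log2 fold changes of 1.64 to 2.76 and 1.30 to 2.32. *Kr-h1* stayed lower in all (-1.92 to -0.50) and lost its call in 8 of 14. It kept it with the row without a gene added (-1.49, limma adjusted p = 0.00857). The sign turned with the libraries rescaled for *Met* (0.39), *gce* (0.12) and *Jheh2* (0.37), and with quantile normalization for *Met* (0.83) and *gce* (0.30). None of these passed in limma.

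Over all genes, 3910 passed in the fit as reported, 1954 with quantile normalization and 2150 with the libraries rescaled. Leaving out 1 library gave 0 to 4672 (limma, with 4690 and 4593 genes at an unadjusted p under 0.05 where a wildtype library was left out). For the 7 tested hormone genes the counts were 0 to 3. Of the pathway lists, 4 genes passed as reported (*JhI-26*, *tai*, *usp* and *Eip75B*), 2 with quantile normalization (*Eip75B* and, not called as reported, *Mip*), 2 with the libraries rescaled (*JhI-26* and *Eip75B*), and 0 to 8 with 1 library left out (8 without HP1a mutant replicate 1, 0 without either wildtype library, with 7 at an unadjusted p under 0.05). The lone library of a genotype was then taken to vary like the other group. The 3 ratios kept their sign in every alternative, from -2.54 to -2.29 for *Jheh2* to *Jheh1*, from -0.65 to -0.39 for *Jheh3* to *Jheh1* and from -0.69 to -0.06 for *gce* to *Met*. The cause of these changes was not tested.

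The labels number the samples 1 and 2 in both genotypes but do not say that a number marks a shared batch, and the deviations of same-numbered libraries from their genotype means correlated at 0.025 across genes. With the replicate number as a block, 2975 genes passed, 2 of the 7 hormone genes (*Jheh1* and *Jheh3*) and 2 genes of the pathway lists (*tai* and *Eip75B*). With 1 library of each genotype per number, the block cannot change a mean difference, so the differences in the ratios (-2.49 for *Jheh2* to *Jheh1*) are the same by construction. Depth limits *jhamt* and *Jhe* most, with 10 to 43 fragments per library. Nothing says that strand was used in the counting.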
